A study of Homo sapiens with 36 samples.

Results

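The 10 genes described here encode core proteins of the spliceosome: PRPF8, SNRNP200, EFTUD2, SF3B1, SF3B2, SF3B3, SF3A1, U2AF2, AQR and SRRM2. They were taken as a fixed set, and every PAR-CLIP cluster with its midpoint on the strand of the gene and within its GENCODE 44 gene body on GRCh38 was collected. This gave 1594 of the 278185 clusters of the 18 lists. PAR-CLIP crosslinks protein to RNA through incorporated 4-thiouridine (4SU), and a cluster is a stretch of genome where overlapping reads carry the T-to-C changes left by crosslinking. The study asked where the RNA-binding proteins SCAF4 and SCAF8, a related pair that binds the C-terminal domain of RNA polymerase II, contact RNA.

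All lists came from HEK293 Flp-In T-REx cells, a human embryonic kidney line that carries a recombination site for inserting 1 copy of a transgene. SCAF4 IP and SCAF8 IP lists (3 each) came from cells in which FLAG-SCAF4 or FLAG-SCAF8 had been induced overnight with doxycycline, at 100 ng/mL per the labels and at a higher dose per the methods. Control IP lists (3) came from FLAG pull-downs of the parental cells, which carry no tagged protein and for which the labels name no doxycycline, while the methods state that they received it as well. Each IP had an input (3 lists per line), 1% of the same extract taken before the pull-down. All cells received 100 µM 4SU overnight and 500 µM for a further 2 h, and were irradiated at 365 nm with 2000 J/m2. Extracts were treated with RNase at 30 U/mL, and each list joins the reads of a soluble and a chromatin fraction. The tagged lines express the protein from a doxycycline-inducible transgene beside the cell's own genes, and are single clones, so each protein is represented by 1 clone. Lists differed widely in size, with 18287 to 54404 clusters in the 6 SCAF4 and SCAF8 IP lists, 4567 to 12493 in the 9 inputs and 1621 to 9638 in the 3 control IP lists. Replicate 1 of every group was sequenced with longer reads than replicates 2 and 3. How deeply each list was sequenced is not known, and p-values measure only the spread between these lists, which may be technical.

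The spliceosome removes introns from pre-mRNA and assembles anew on each one from small nuclear ribonucleoproteins (snRNPs) and many further proteins. U2AF2 binds the pyrimidine-rich tract upstream of the 3′ splice site and helps to bring in the U2 snRNP, whose SF3A and SF3B proteins, SF3A1, SF3B1, SF3B2 and SF3B3 among them, hold the branch site. PRPF8 is the large scaffold around the catalytic centre, SNRNP200 the helicase that unwinds the U4/U6 pair, and EFTUD2 a GTPase, and these 3 belong to the U5 snRNP. AQR is a helicase that contacts the intron upstream of the branch site, and SRRM2 is a large serine- and arginine-rich protein of nuclear speckles.

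The gene bodies span 18580 nt (SF3B2) to 117961 nt (AQR), and the isoform used for each gene has 12 exons (U2AF2) to 45 exons (SNRNP200). PRPF8 (ENSG00000174231.18) lies on the minus strand at chr17:1650629-1684867, SNRNP200 (ENSG00000144028.15) on the minus strand at chr2:96274338-96321271 and EFTUD2 (ENSG00000108883.13) on the minus strand at chr17:44849948-44899445. SF3B1 (ENSG00000115524.17) lies on the minus strand at chr2:197388515-197435079, SF3B2 (ENSG00000087365.16) on the plus strand at chr11:66050729-66069308, SF3B3 (ENSG00000189091.13) on the plus strand at chr16:70523791-70577670 and SF3A1 (ENSG00000099995.19) on the minus strand at chr22:30331988-30356919. U2AF2 (ENSG00000063244.14) lies on the plus strand at chr19:55654146-55674716, AQR (ENSG00000021776.11) on the minus strand at chr15:34851782-34969742 and SRRM2 (ENSG00000167978.19) on the plus strand at chr16:2752626-2772538. SNRNP200, SF3B3 and U2AF2 overlap other annotated genes on the same strand (ENSG00000230747, SNORD111 with SNORD111B, and ENSG00000267096), so clusters there could belong to either transcript.

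Clusters in these genes often ran over an exon edge, and 5 sites show the forms they took. Each site is a merged region of the SCAF4 and SCAF8 IP lists without overlap with any input or control IP cluster, printed from the GRCh38 reference in the sense of the transcript, with exonic bases in capitals and intronic bases in lower case. The SNRNP200 site (chr2:96296880-96297060, minus strand, 6 of 6 lists) runs from exon 12 over the 5′ splice site into intron 12. The EFTUD2 site (chr17:44863597-44863781, minus strand, 5 of 6 lists) has the same form at exon 15.
SNRNP200: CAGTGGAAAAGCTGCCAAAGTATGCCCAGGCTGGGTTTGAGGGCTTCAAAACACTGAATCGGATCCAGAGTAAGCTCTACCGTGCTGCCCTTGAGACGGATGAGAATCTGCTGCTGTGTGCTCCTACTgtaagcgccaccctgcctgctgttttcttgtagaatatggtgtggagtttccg
EFTUD2: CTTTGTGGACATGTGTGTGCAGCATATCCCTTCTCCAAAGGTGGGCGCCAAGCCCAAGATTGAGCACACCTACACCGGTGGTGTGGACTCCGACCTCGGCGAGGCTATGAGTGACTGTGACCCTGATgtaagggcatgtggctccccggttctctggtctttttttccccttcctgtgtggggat
The SF3B2 site (chr11:66055350-66055589, plus strand, 6 of 6 lists) covers the 3′ part of intron 4, the short exon 5 and the first bases of intron 5, and the SF3B3 site (chr16:70556834-70557127, plus strand, 5 of 6 lists) holds the whole of exon 15 with both its splice sites. The U2AF2 site (chr19:55664190-55664438, plus strand, 4 of 6 lists, 3 of them SCAF8 IP) lies in intron 7 and holds no exonic base.
SF3B2: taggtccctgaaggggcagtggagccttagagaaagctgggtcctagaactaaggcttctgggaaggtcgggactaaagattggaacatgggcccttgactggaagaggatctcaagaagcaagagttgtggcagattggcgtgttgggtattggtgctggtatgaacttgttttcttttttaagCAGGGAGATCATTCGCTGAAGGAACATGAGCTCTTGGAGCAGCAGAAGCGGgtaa
SF3B3: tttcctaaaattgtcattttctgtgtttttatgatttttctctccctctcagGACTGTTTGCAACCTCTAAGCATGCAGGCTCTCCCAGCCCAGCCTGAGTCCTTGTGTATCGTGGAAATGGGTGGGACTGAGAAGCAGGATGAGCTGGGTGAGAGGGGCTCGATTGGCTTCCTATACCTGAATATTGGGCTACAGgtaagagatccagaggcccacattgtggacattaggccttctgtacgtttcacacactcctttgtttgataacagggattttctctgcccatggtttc
U2AF2: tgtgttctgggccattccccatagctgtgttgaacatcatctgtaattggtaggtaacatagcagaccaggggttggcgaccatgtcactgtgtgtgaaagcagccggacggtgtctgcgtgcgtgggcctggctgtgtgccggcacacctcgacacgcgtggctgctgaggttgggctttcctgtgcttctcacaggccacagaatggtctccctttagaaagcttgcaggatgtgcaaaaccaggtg
Sites that touched an untranslated region or were longer than 300 nt are not printed. Of the 5 genes with a printed site, only SNRNP200 passed the limit on input density in the study's consensus rule, described below.

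The SCAF4 IP lists held 108, 241 and 188 clusters in the 10 genes, and the SCAF8 IP lists held 118, 122 and 191. The control IP lists held 63, 27 and 22. The inputs held 68, 51 and 45 from FLAG-SCAF4 cells, 61, 86 and 70 from FLAG-SCAF8 cells, and 64, 33 and 36 from parental cells. In number, every SCAF4 and SCAF8 IP list was above every other list. Per 10000 clusters of the list the order was different, with 44.3 to 66.7 in the SCAF4 and SCAF8 IP lists, 51.2 to 99.7 in the inputs and 65.4 to 136 in the control IP lists. The IP lists thus held more clusters in these genes, but no larger share of the list, and each result below is given on both scales.

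**Figure D1:**
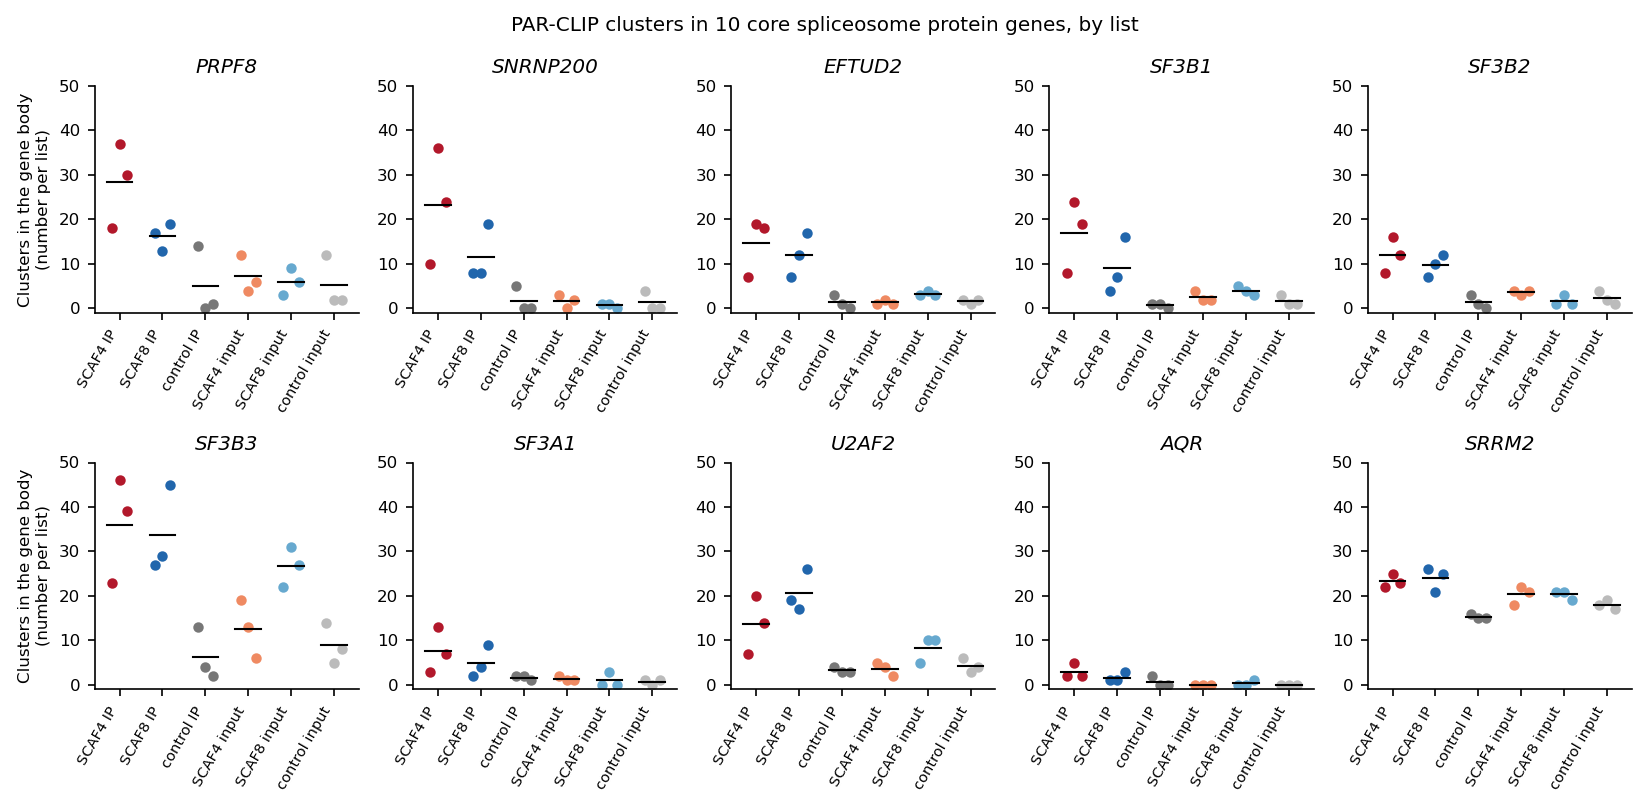
Clusters per list in each of the 10 genes, by group. Each point is 1 of the 3 lists of a group and the line is the mean of the group. In PRPF8, SNRNP200, EFTUD2 and SF3B2 the 6 SCAF4 and SCAF8 IP lists lie above the 6 inputs of the same lines, while the groups lie close together in SRRM2.

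Among the U5 snRNP genes, SNRNP200 differed most from its inputs. It held 10, 36 and 24 clusters in SCAF4 IP and 8, 8 and 19 in SCAF8 IP. The control IP lists held 5, 0 and 0. The inputs held 3, 0 and 2 from FLAG-SCAF4 cells, 1, 1 and 0 from FLAG-SCAF8 cells and 4, 0 and 0 from parental cells. In number, no list of the SCAF4 or SCAF8 IP fell to the level of any input or control IP list. Scaled to 10000 clusters the groups overlapped. SCAF8 IP replicate 1 (3.18) lay below SCAF4 input replicate 3 (4.17) and control IP replicate 1 (5.19). Neither IP alone was called against its own input per 10000 clusters (limma adjusted p = 0.154 for SCAF4 and 0.219 for SCAF8). With the SCAF4 and SCAF8 IP averaged, SNRNP200 was higher than in their inputs per 10000 clusters (log2 difference 1.55 ± 0.50 SE, limma adjusted p = 0.0273) and in cluster number (3.06 ± 0.58 SE, adjusted p = 0.000814). The first of these calls was lost, with adjusted p between 0.0565 and 0.0873, on leaving out any of SCAF4 IP replicates 2 and 3, SCAF8 IP replicate 3, SCAF4 input replicate 2 or SCAF8 input replicate 3, and with 0.186 to 0.229 on leaving out all lists of replicate 3 or 2.

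PRPF8 held 18, 37 and 30 clusters in SCAF4 IP and 17, 13 and 19 in SCAF8 IP. It held 14, 0 and 1 in control IP. Its inputs held 12, 4 and 6 from FLAG-SCAF4 cells, 3, 9 and 6 from FLAG-SCAF8 cells and 12, 2 and 2 from parental cells. In number the IP lists lay above all inputs, narrowly where the inputs of replicate 1 reached 12, and control IP replicate 1 lay among the SCAF8 IP lists. Cluster number was higher than in the inputs (log2 difference 1.63 ± 0.59 SE, adjusted p = 0.0276), while the difference per 10000 clusters was -0.10 ± 0.47 SE (adjusted p = 0.902).

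EFTUD2 had 7, 19 and 18 clusters in SCAF4 IP and 7, 12 and 17 in SCAF8 IP. It had 3, 1 and 0 in control IP and 1 to 4 in the 9 inputs. The SCAF4 and SCAF8 IP lists were thus above all other lists in number. The log2 difference from own inputs was 2.09 ± 0.34 SE in number (adjusted p = 0.000316) and 0.49 ± 0.40 SE per 10000 clusters (adjusted p = 0.377). Exon 2 of EFTUD2 held a cluster midpoint in 6 of 6 SCAF4 and SCAF8 IP lists and in no input or control IP list.

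Of the U2 snRNP genes, SF3B3 had the most clusters, with 23, 46 and 39 in SCAF4 IP and 27, 29 and 45 in SCAF8 IP. Control IP held 13, 4 and 2. The inputs held 19, 13 and 6 from FLAG-SCAF4 cells, 22, 31 and 27 from FLAG-SCAF8 cells and 14, 5 and 8 from parental cells. The FLAG-SCAF8 inputs overlapped the SCAF8 IP lists, unlike the inputs of FLAG-SCAF4 cells. Per 10000 clusters SF3B3 was lower in the SCAF4 and SCAF8 IP than in their inputs (log2 difference -0.89 ± 0.23 SE, adjusted p = 0.00828), whereas in number the sign was positive and the call was not made (0.91 ± 0.38 SE, adjusted p = 0.050). The lower call was also lost without the lists of replicate 2 or of replicate 3 (adjusted p = 0.0710 and 0.0804) and among clusters with at least the median score of their list (adjusted p = 0.652).

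SF3B1 had 8, 24 and 19 clusters in SCAF4 IP, 4, 7 and 16 in SCAF8 IP, 0 to 1 in control IP and 1 to 5 in the inputs. SF3B2 had 8, 16 and 12 in SCAF4 IP, 7, 10 and 12 in SCAF8 IP, 0 to 3 in control IP and 1 to 4 in the inputs. SF3A1, with fewer clusters, had 3, 13 and 7 in SCAF4 IP, 2, 4 and 9 in SCAF8 IP, 1 to 2 in control IP and 0 to 3 in the inputs. For SF3B2 the IP lists did not overlap in number with any other list, while the lowest IP lists of SF3B1 and SF3A1 reached the highest inputs. In number all 3 were higher than in own inputs, with log2 differences of 1.52 ± 0.35 SE for SF3B1 (adjusted p = 0.00265), 1.75 ± 0.34 SE for SF3B2 (adjusted p = 0.000969) and 1.74 ± 0.42 SE for SF3A1 (adjusted p = 0.00352). Per 10000 clusters they differed by -0.07 ± 0.36, 0.14 ± 0.39 and 0.39 ± 0.40 SE, and none was called.

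In U2AF2, summed over lists, intronic midpoints outnumbered exonic ones in SCAF8 IP (43 of 62 clusters) but not in SCAF4 IP (20 of 41) or the inputs (13 of 49). By list they also did so in SCAF4 IP replicate 2 (12 of 20) and SCAF8 input replicate 3 (6 of 10). With the MANE Select isoform they did so in SCAF4 IP replicates 2 and 3 (13 of 20 and 8 of 14) but not 1 (3 of 7). U2AF2 held 7, 20 and 14 clusters in SCAF4 IP and 19, 17 and 26 in SCAF8 IP. Control IP held 4, 3 and 3, and the inputs held 2 to 10. Intronic midpoints accounted for 1, 12 and 7 of the clusters in SCAF4 IP and 12, 12 and 19 in SCAF8 IP. In control IP they were 1, 0 and 0. In the inputs they were 0, 0 and 0 from FLAG-SCAF4 cells, 1, 2 and 6 from FLAG-SCAF8 cells and 2, 0 and 2 from parental cells. In number SCAF4 IP replicate 1 therefore stood with the inputs, while the other 5 IP lists had more intronic clusters than any input. Scaled to 10000 clusters this did not hold, with 6.66 intronic clusters in SCAF8 input replicate 3 and 0.527 to 6.56 in the IP lists. In number U2AF2 was higher than in own inputs (log2 difference 1.43 ± 0.28 SE, adjusted p = 0.000949), and per 10000 clusters the difference was -0.25 ± 0.33 SE (adjusted p = 0.614).

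AQR, the longest of the genes, had the fewest clusters, with 2, 5 and 2 in SCAF4 IP and 1, 1 and 3 in SCAF8 IP. Control IP held 2, 0 and 0, and 1 cluster was found among the 9 inputs. Its number was higher than in own inputs (log2 difference 1.46 ± 0.31 SE, adjusted p = 0.00155), with 0.58 ± 0.27 SE per 10000 clusters (adjusted p = 0.108).

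SRRM2 had between 15 and 26 clusters in every list. It held 22, 25 and 23 in SCAF4 IP and 26, 21 and 25 in SCAF8 IP. It held 16, 15 and 15 in control IP. The inputs held 18, 22 and 21 from FLAG-SCAF4 cells, 21, 21 and 19 from FLAG-SCAF8 cells and 18, 19 and 17 from parental cells. Per 10000 clusters this was 4.60 to 11.6 in the SCAF4 and SCAF8 IP and 15.4 to 43.8 in their inputs, with no overlap. SRRM2 was lower than in own inputs on that scale (log2 difference -1.56 ± 0.37 SE, adjusted p = 0.00533), but in number its difference was 0.21 ± 0.13 SE and not called (adjusted p = 0.156). The lower call was lost without the lists of replicate 2 or of replicate 3 (adjusted p = 0.0873 and 0.160) and among clusters with at least the median score (adjusted p = 0.173).

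The calls were set against those over all genes. Of the 9389 genes tested, 22.9% were called higher and 2.45% lower in the SCAF4 and SCAF8 IP than in their own inputs per 10000 clusters, against 1 (SNRNP200) and 2 (SF3B3, SRRM2) of the 10, all of which were tested. The median log2 difference was 0.04 in the 10 genes and 0.23 over all genes. In cluster number, 8 of the 10 were called higher, all but SF3B3 and SRRM2, against 67.6% of all genes, and the medians were 1.58 and 0.92. Groups of 6 IP and 6 input lists did not overlap, with the IP higher, for 4 of the 10 in cluster number (PRPF8, SNRNP200, EFTUD2 and SF3B2), against 11.7% of all genes. Per 10000 clusters this was so for none of the 10, against 4.82% of all genes, and the IP was lower without overlap for SRRM2, against 3.69%.

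Each protein was also set against its own input. SCAF4 IP was lower than its input in SRRM2 per 10000 clusters (log2 difference -1.96 ± 0.52 SE, adjusted p = 0.0168), and no other gene of the 10 was called, where 12.9% of all genes were higher and 1.13% lower. In number the SRRM2 difference was 0.19 ± 0.18 SE (adjusted p = 0.364), and the scaled call was lost on leaving out SCAF4 IP replicate 2 or 3 or SCAF4 input replicate 2 or 3 (adjusted p = 0.0543 to 0.0888). SCAF8 IP had none of the 10 called against its input by limma, with 2.18% of all genes higher and 0.0426% lower. The smallest adjusted p was 0.0635 (SF3B3, -1.12 ± 0.32 SE), and 3 of the 10 had an unadjusted p under 0.05. Without SCAF8 IP replicate 2, SF3B3 was called (-1.29, adjusted p = 0.0327). In cluster number, SCAF4 IP was higher than its input in 8 of the 10 (55.2% of all genes), all but PRPF8 and SRRM2, and SCAF8 IP in 4 (18% of all genes), which were SNRNP200, EFTUD2, SF3B2 and U2AF2. The replicate block was a term for replicate number shared by all groups, not a term for each extract. With it, the count for SCAF8 IP was 2, SNRNP200 (2.89, adjusted p = 0.0343) and SF3B2 (2.05, adjusted p = 0.0188). The count for SCAF4 IP was 5 on leaving out any of SCAF4 IP replicates 2 and 3 and SCAF4 input replicates 2 and 3. The count for SCAF8 IP was 0 without SCAF8 IP replicate 3 or SCAF8 input replicate 3, 1 without SCAF8 input replicate 1 and 2 without SCAF8 input replicate 2. Shares of all genes above are from fits of all lists without the block, and do not apply to these counts.

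Control IP lists were small, and the comparison with them turned on the scale. Per 10000 clusters, SRRM2 was lower in SCAF4 IP than in control IP (log2 difference -2.54 ± 0.52 SE, adjusted p = 0.00405) and in SCAF8 IP (-2.26 ± 0.52 SE, adjusted p = 0.0208), and in cluster number it was higher in both (0.57 ± 0.18 SE, adjusted p = 0.0158, and 0.61 ± 0.18 SE, adjusted p = 0.0192). None of the other 9 was called per 10000 clusters against either. With the replicate block, under which IP and control IP share a number but no extract, 3 of the 10 were called for SCAF4 IP, with SNRNP200 (1.99, adjusted p = 0.0338) and U2AF2 (-1.21, adjusted p = 0.0461) beside SRRM2. Among all genes 16.2% were higher and 3.08% lower for SCAF4 IP, and 6.07% and 2.28% for SCAF8 IP. Cluster number was higher in 10 of the 10 for SCAF4 IP (66.7% of all genes) and in 8 for SCAF8 IP (41% of all genes), without AQR and SF3A1. These comparisons share the control IP lists. The scaled SRRM2 call for SCAF8 IP was lost on leaving out SCAF8 IP replicate 3 or control IP replicate 2 or 3 (adjusted p = 0.0832 to 0.103). Without control IP replicate 1, 5 of the 10 were called for SCAF4 IP and 2 for SCAF8 IP per 10000 clusters, and without control IP replicate 2 the count was 2 for SCAF4 IP. In cluster number the count for SCAF8 IP was 5 without control IP replicate 2 or 3. The shares of all genes given here are those of the main fit, and do not apply to counts with lists left out or with the replicate block.

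SCAF4 and SCAF8 were compared directly. No gene of the 10 was called between SCAF4 IP and SCAF8 IP by limma, nor did any have an unadjusted p under 0.05, where 1.71% of all genes were called higher and 0.458% lower in SCAF4 IP per 10000 clusters. The largest difference was that of U2AF2 (log2 difference -0.84 ± 0.47 SE, adjusted p = 0.660), followed by SNRNP200 and SF3B1 (0.54 ± 0.70 and 0.54 ± 0.51 SE). In cluster number the differences ran from -0.65 (U2AF2) to 0.91 (SF3B1), with a smallest adjusted p of 0.407 by limma. The interaction, that is the difference between the proteins in their change from input, was called for none of the 10 (smallest adjusted p = 0.877 per 10000 clusters and 0.599 in number). Of all 9389 genes, 0 were called per 10000 clusters and 134 in number.

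**Figure D2:**
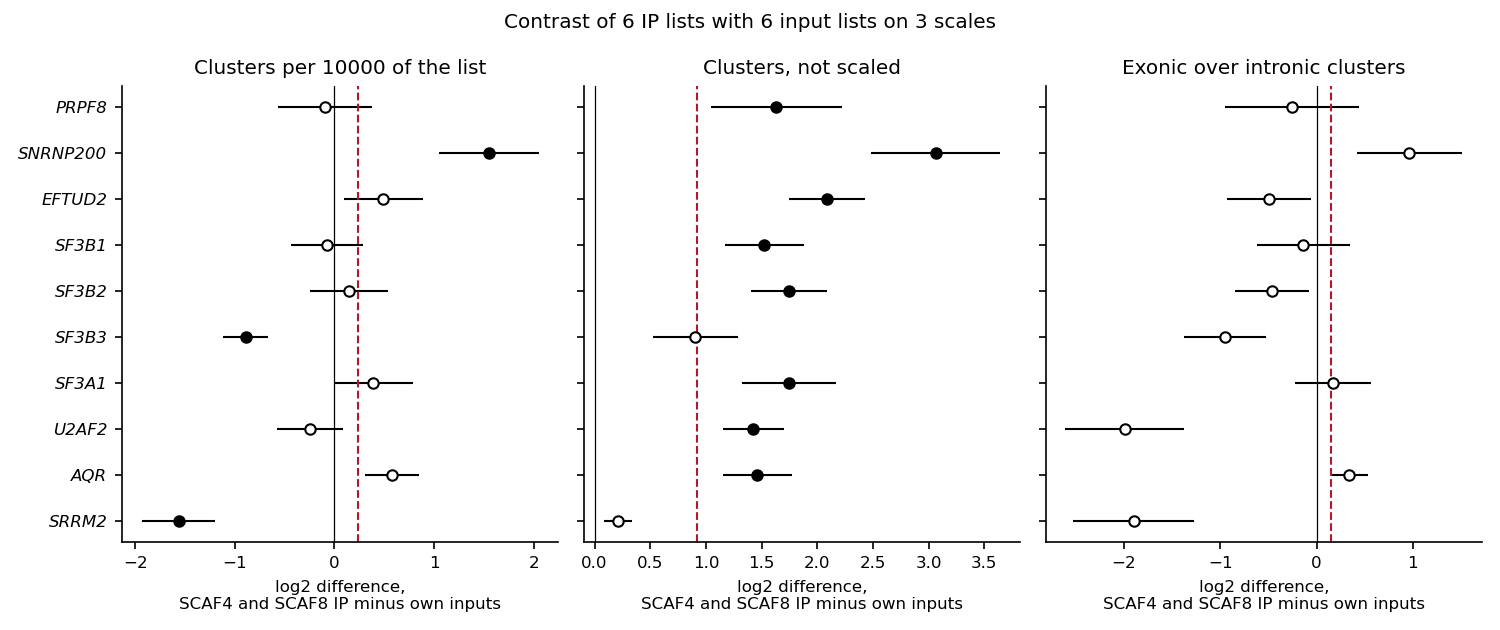
Log2 differences of the 10 genes between the SCAF4 and SCAF8 IP and their own inputs in clusters per 10000 (left), in cluster number (middle) and in the ratio of exonic to intronic clusters (right), with bars for the standard error. Filled points have an adjusted p under 0.05 and the dashed red line marks the median of all genes tested. Per 10000 clusters SNRNP200 stands right and SF3B3 and SRRM2 stand left of 0, in cluster number all 10 values are above 0, and no ratio passes the threshold.

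The positions of the clusters were compared next. Midpoints were exonic in 79.0% ± 4.79 of the clusters of the 10 genes in SCAF4 IP and in 73.3% ± 3.99 in SCAF8 IP (SD, n = 3). Exonic shares were 90.6% ± 2.57 in the FLAG-SCAF4 inputs, 84.2% ± 1.97 in the FLAG-SCAF8 inputs, 84.9% ± 6.63 in the parental inputs and 90.3% ± 2.70 in control IP (SD, n = 3). In each tagged line the 3 IP lists, which reached at most 83.3% for SCAF4 and 77.0% for SCAF8, lay below the 3 inputs, which began at 88.2% and 82.0%. Over all protein-coding genes the exonic share was 61.3% to 73.3% in the SCAF4 and SCAF8 IP, 45.8% to 69.8% in the inputs and 62.4% to 80.7% in control IP. Within each line those shares overlapped, at 63.6% to 73.3% in SCAF4 IP and 62.8% to 65.3% in its inputs, and at 61.3% to 67.2% in SCAF8 IP and 56.0% to 69.8% in its inputs. The shares are descriptive, since they sum over genes chosen with results of these data known.

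**Figure D3:**
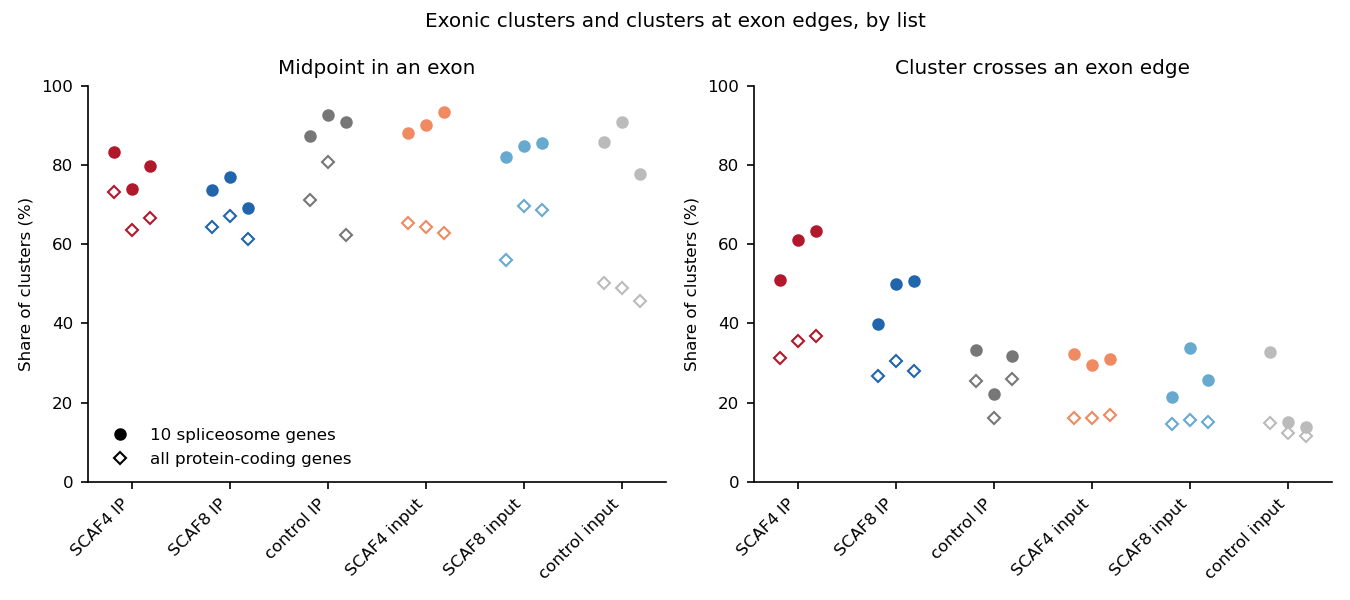
Share of clusters (percent) with an exonic midpoint (left) and share that crosses an exon edge (right) in each of the 18 lists, with filled circles for the 10 genes and open diamonds for all protein-coding genes. On the left the SCAF4 and SCAF8 IP lists lie between 69.1% and 83.3% for the 10 genes, and on the right they lie at 39.8% or more, above the other lists.

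Per gene, the exon-to-intron ratio of cluster numbers was tested over 7312 protein-coding genes with introns. None of the 10 was called by limma between the SCAF4 and SCAF8 IP and their own inputs, where 8.22% of all genes had a higher ratio and 2.41% a lower one. The ratios of U2AF2 (log2 difference -1.99 ± 0.62 SE, adjusted p = 0.0520), SRRM2 (-1.90 ± 0.63 SE, adjusted p = 0.0665) and SF3B3 (-0.95 ± 0.43 SE, adjusted p = 0.167) had an unadjusted p under 0.05. The ratio of U2AF2 passed the threshold with the MANE Select isoform (-1.55, adjusted p = 0.0255), without SCAF4 IP replicate 1 (adjusted p = 0.0400) and without SCAF8 input replicate 3 (adjusted p = 0.0420). The median difference was -0.36 in the 10 genes and 0.15 over all genes. None of the 10 was called for SCAF4 alone (4.1% of all genes higher and 0.574% lower), where 4 had an unadjusted p under 0.05, or for SCAF8 alone (0.78% and 0.232%), where none did. The interaction between the proteins was called for none of the 10 (smallest adjusted p = 0.737) and for 3 of the 7312 genes.

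Density per length showed how differently the genes were covered. Summed over the 10 genes, SCAF4 and SCAF8 IP lists had 1.87 exonic and 0.114 intronic clusters per kb and list, an exon-to-intron density ratio of 16.5, and the inputs had 0.757 and 0.0223, a ratio of 33.9. PRPF8 had the most one-sided pattern of the genes with over 100 IP clusters, with a density ratio of 49.9 in the IP, and SNRNP200 reached 28.5. The inputs were more one-sided in both genes. Their ratio was 97.1 in PRPF8, with 2 intronic midpoints among 56 clusters, and SNRNP200 had none among 11. In U2AF2 the ratio was 3.69 in the IP and 16.1 in the inputs. In SRRM2, whose isoform is nearly as much exon as intron, it was 1.47 in the IP and 6.49 in the inputs.

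Intronic clusters of U2AF2 gathered in its longest intron. Intron 7 (4762 nt) held 1, 8 and 7 clusters in SCAF4 IP and 7, 8 and 10 in SCAF8 IP, 41 in all. It held 1 in control IP and 7 in the 9 inputs, of which 4 were in SCAF8 input replicate 3. Intron 1 (4056 nt) held 16 clusters in the SCAF4 and SCAF8 IP, 13 of them in SCAF8 IP, 0 in control IP and 5 in the inputs. Of the 63 intronic clusters of U2AF2 in the IP, 54 had no exon within 200 nt of the midpoint. The U2AF2 sequence printed above is part of this intron 7.

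The distance of intronic midpoints from exons varied among the other genes. None of 11 in SNRNP200 and none of 7 in SF3B2 was over 200 nt from an exon in the SCAF4 and SCAF8 IP. In SF3B1 11 of 14 were, in SF3B3 33 of 46 and in SRRM2 30 of 60. Intron length limits these values, since a short intron cannot hold a midpoint that far from an exon. This applies to intron 4 of SF3B2 (219 nt) and to introns 6, 25 and 31 of SNRNP200 (361, 305 and 353 nt). Over the 10 genes 143 of 237 intronic midpoints were that far away in the IP and 54 of 70 in the inputs. Intron 4 of SF3B2 (219 nt), at the site printed above, held a midpoint in 6 of 6 SCAF4 and SCAF8 IP lists and in no other list.

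In the inputs most SRRM2 clusters, 113 of 176, lay in its longest exon, against 37 of 142 in the SCAF4 and SCAF8 IP. This exon 11 (6701 nt), which encodes much of the repeat-rich protein, held 10, 3 and 3 clusters in SCAF4 IP and 9, 6 and 6 in SCAF8 IP. It held 7, 12 and 10 in control IP. The inputs held 9, 14 and 15 from FLAG-SCAF4 cells, 14, 11 and 13 from FLAG-SCAF8 cells and 11, 16 and 10 from parental cells. Intron 1 (3479 nt) held 15 clusters in the SCAF4 and SCAF8 IP, 0 in control IP and 4 in the inputs, and intron 12 (1067 nt) held 18, 5 and 9. SRRM2 clusters covered 7070 to 8439 exonic nt in the SCAF4 and SCAF8 IP lists and 5669 to 6878 in the inputs of the same lines, without overlap, and 1516 to 3889 and 218 to 927 nt outside exons. These lengths were not scaled to the size of the list.

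SF3B3 carried many clusters at its end. Exon 26 (5996 nt), which holds the 3′UTR, had 53 in the SCAF4 and SCAF8 IP, 7 in control IP and 55 in the 9 inputs. Over the 10 genes, 3′UTR midpoints made up 9.61% of the SCAF4 and SCAF8 IP clusters (7.41% to 11.9% by list) and 16.7% of the input clusters (12.1% to 22.9%).

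**Figure D4:**
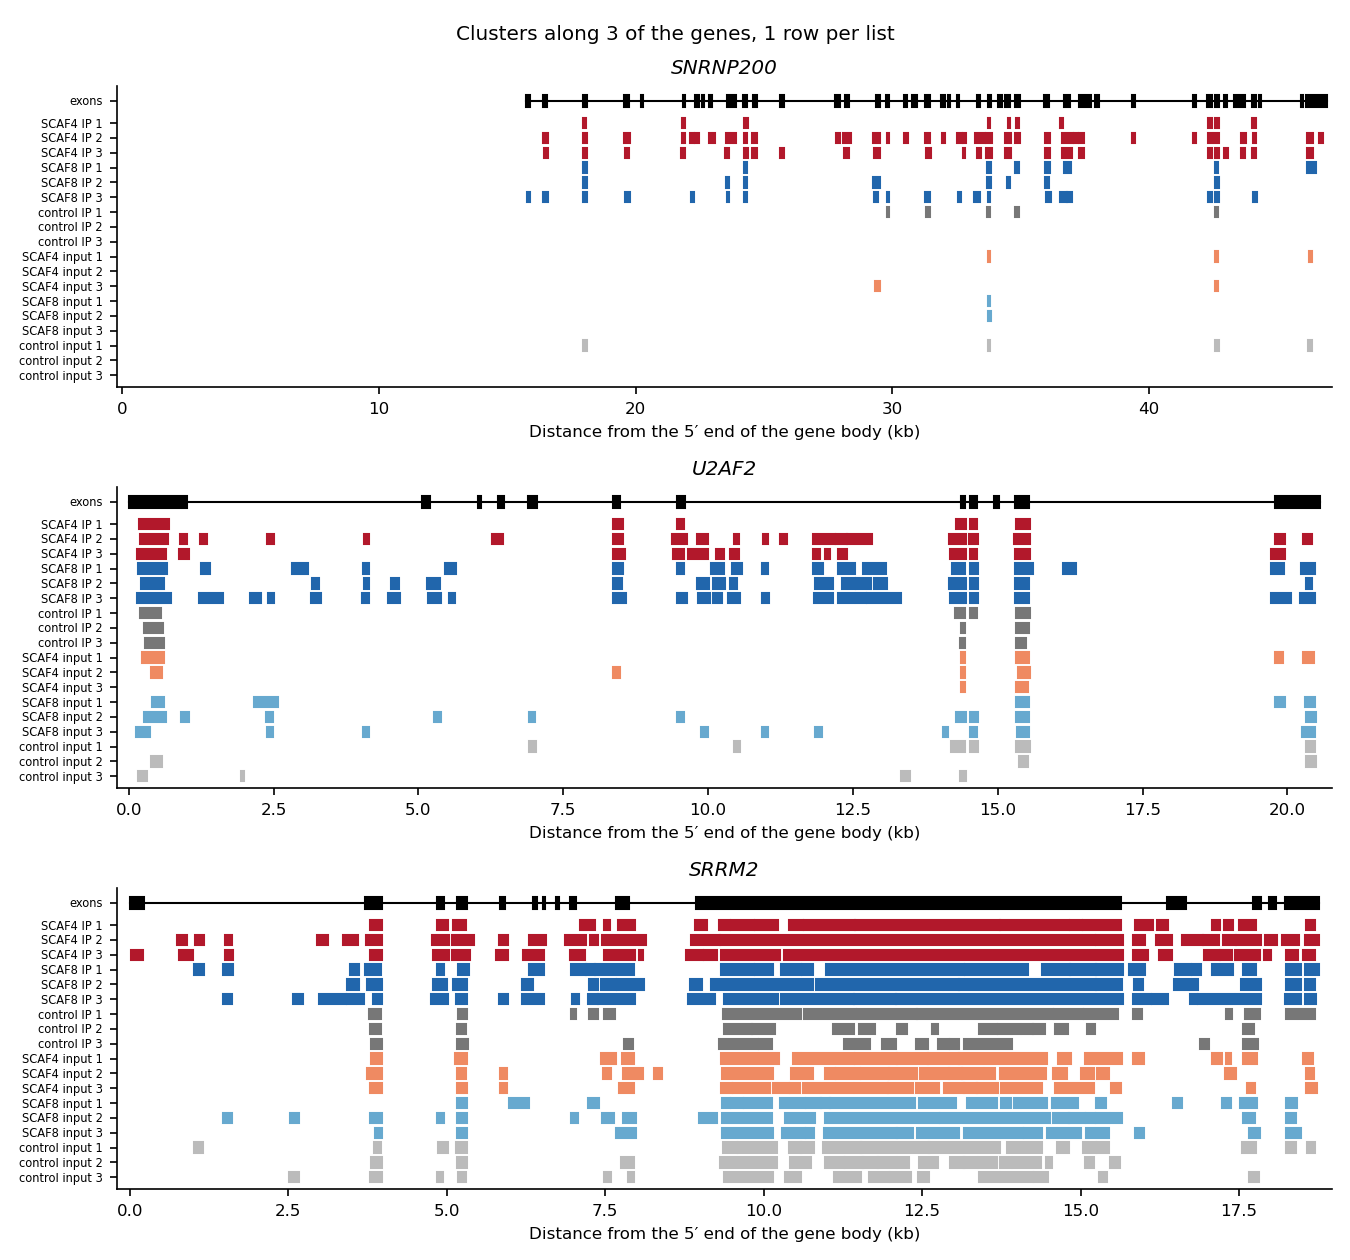
Clusters of each of the 18 lists (bars, 1 row per list) along SNRNP200, U2AF2 and SRRM2, by distance from the 5′ end of the gene body in kb, below the exons of the isoform (black). Bars of the SCAF4 and SCAF8 IP sit at exons of SNRNP200, run through intron 7 of U2AF2 in 5 of the 6 lists and join over exon 11 of SRRM2, and the body of SNRNP200 begins upstream of the isoform drawn, where no cluster lies.

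Clusters that crossed an exon edge separated the SCAF4 and SCAF8 IP lists from the other 12. In the 10 genes the share was 58.4% ± 6.58 in SCAF4 IP and 46.9% ± 6.11 in SCAF8 IP, against 29.1% ± 6.03 in control IP, 31.0% ± 1.48 in the FLAG-SCAF4 inputs and 28.9% ± 4.65 over the 6 inputs of both tagged lines (SD, n = 3, or 6 for the last). The lowest SCAF4 or SCAF8 IP list had 39.8%, and the highest of the other 12 lists 33.7%. Over all protein-coding genes the shares were 26.8% to 36.8% in the SCAF4 and SCAF8 IP, 11.5% to 16.7% in the inputs and 16.1% to 26.0% in control IP. The higher share in the IP lists was thus seen over all genes too, at lower levels. Starts and ends of the isoform count as edges in this measure.

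Splice sites gave the same order. Of the 968 SCAF4 and SCAF8 IP clusters, 403 (41.6%) crossed a 5′ splice site and 297 (30.7%) a 3′ splice site, against 89 (17.3%) and 78 (15.2%) of the 514 input clusters. A whole internal exon lay within 188 IP clusters (19.4%, 11% to 29.5% by list) and within 29 input clusters (5.64%, 0% to 9.38%). The median length was 170 nt in the IP and 165 nt in the inputs. The aligner named by the submitters, Bowtie2, places no read across a removed intron, so a read of spliced RNA over a junction does not appear as such in any list.

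By gene, 90 of 134 IP clusters of PRPF8, 75 of 105 of SNRNP200, 56 of 80 of EFTUD2 and 50 of 65 of SF3B2 crossed an edge. The inputs had 21 of 56, 4 of 11, 9 of 19 and 12 of 23. In SF3B1 the proteins had different values, with 23 of 51 clusters in SCAF4 IP and 2 of 27 in SCAF8 IP, a difference that was not tested. In U2AF2 the IP and input values were close (33 of 103 and 15 of 49), and in SRRM2 they were 60 of 142 and 31 of 176.

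Exons were then counted by whether a cluster overlapped them. Of the 266 exons of the 10 isoforms, 159 (59.8%) were overlapped in 2 or more of the 6 lists of the 2 IPs, 59 (22.2%) in at least 2 of the 9 inputs and 14 in at least 2 of the 3 control IP lists. Of these, 58 exons met both the IP and the input criterion, and 69 of the 159 had no cluster in any input or control IP list. SF3B3 had 26 of 26 exons overlapped in the IP lists and 16 in the inputs. PRPF8 had 31 of 42 and 13, SNRNP200 24 of 45 and 3, and SF3B1 17 of 25 and 3. AQR stood apart with 3 of 35 and 0. The IP lists are larger than the others, and these counts were not scaled to list size.

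**Figure D5:**
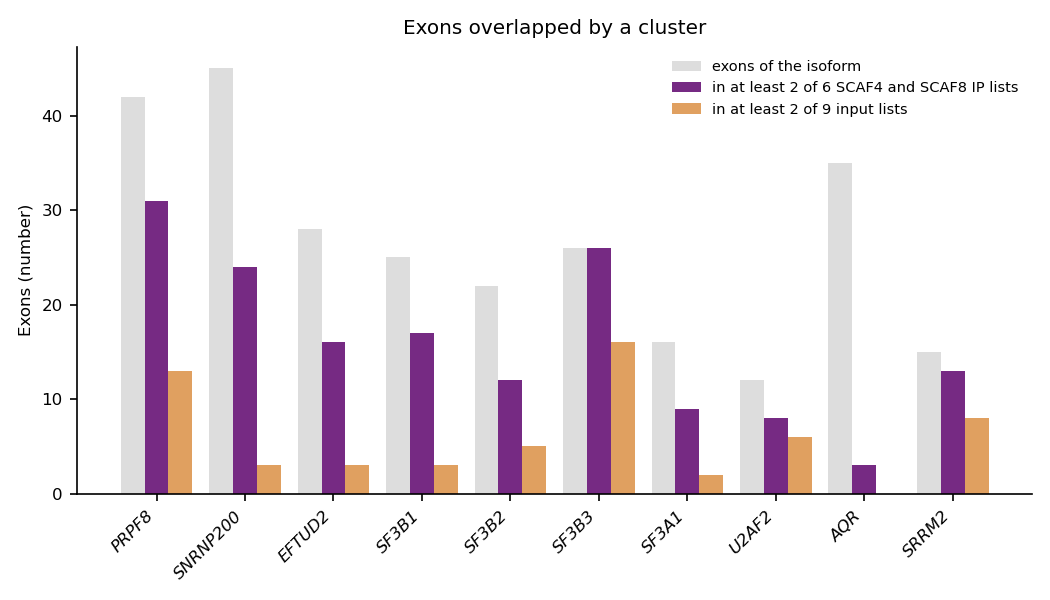
Number of exons of each gene (grey), exons overlapped by a cluster in 2 or more of the 6 lists of both IPs (purple) and exons overlapped in at least 2 of the 9 inputs (orange). Purple bars reach the grey ones in SF3B3 and are lowest in AQR, and input bars are at 3 exons in SNRNP200, EFTUD2 and SF3B1.

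Clusters of the 6 SCAF4 and SCAF8 IP lists merged into 263 regions in the 10 genes. Of these, 196 were present in at least 2 lists, 164 in at least 1 list of each protein and 102 in at least 2 of each. Regions in at least 2 lists of SCAF4 IP and none of SCAF8 IP numbered 27, and the reverse was true of 5, of which 4 lay in U2AF2. These counts were not scaled to list size, which was 18991, 54404 and 33962 clusters in SCAF4 IP and 25189, 18287 and 41502 in SCAF8 IP. Regions chain overlapping clusters, as in 1 of 6892 nt in SRRM2, so lists can share a region without overlapping each other. All 6 lists shared 49 regions, and 4 of these had no input or control IP cluster, 1 each in SNRNP200, EFTUD2, SF3B2 and SF3B3. By composition 162 of the 263 held both exonic and intronic bases, 42 were exonic and 59 intronic, with 18 of the intronic ones in U2AF2 and 13 in SF3B3.

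The consensus rule of the study was applied to these genes, which keeps regions of at least 2 replicates. It removes a region that overlaps more than 1 of the 9 inputs or any control IP list, and all regions of a gene whose merged input regions reach 1 per 10 kb. It left 19 SCAF4 sites (18 in SNRNP200, 1 in AQR), 6 SCAF8 sites (all in SNRNP200) and 22 sites of the pooled lists (20 in SNRNP200, 2 in AQR). Only SNRNP200 and AQR passed the limit on input density, at 0.982 and 0.0820 input regions per 10 kb. The nearest genes outside were SF3A1 and SF3B1, both at 1.38, and EFTUD2 at 1.495, and the densest was U2AF2 at 9.77. The annotated body of SNRNP200 is longer than its isoform used here (46934 nt against 31209 nt). With the density taken over the isoform, an alternative chosen after the data were seen, it had 1.42 input regions per 10 kb, and 1, 0 and 2 sites were left. Without any density limit 83, 51 and 109 sites were left, in which U2AF2 had 7 SCAF4 and 15 SCAF8 sites.

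Motifs that the study names were looked for in regions found in at least 2 of the 6 IP lists, within a window of 100 nt centred on the region and on the strand of the transcript only. CGG or CGA was found in 71.9% of the 196 regions of the 10 genes and in 67.2% of 41704 regions of all genes. The second motif, GCAGC with its variant forms CCAGC, likewise GCAGG, and finally CCAGG, was found in 51.0% and 43.9%. The third, CTCC or CACC, was found in 53.1% and 49.3%. In regions of at least 2 of the 9 inputs the shares were 70.4%, 40.7% and 54.3% in 81 regions of the 10 genes and 56.7%, 35.8% and 41.4% over all genes. The first motif was thus about as frequent in the input regions of the 10 genes as in their IP regions. Some of the motifs overlap in sequence, and a match describes the sequence only.

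Other spliceosome genes were counted from 7 lists of 89 genes, of which 82 were tested and 1 (LSM2) had no cluster in any list. Per 10000 clusters, 15 of the 82 were higher and 2 lower in the SCAF4 and SCAF8 IP than in own inputs (22.9% and 2.45% of all genes), with a median log2 difference of 0.25. In number 66 of the 82 were higher, against 67.6% of all genes. In the U4/U6.U5 tri-snRNP list, 3 of 14 were higher, PRPF6 (1.31 ± 0.39 SE, adjusted p = 0.0193), PRPF31 (0.87 ± 0.25 SE, adjusted p = 0.0168) and the helicase DDX23 (1.13 ± 0.41 SE, adjusted p = 0.0498). PRPF6 had 107 clusters in the 6 IP lists, 9 in the own inputs and 11 in control IP. Of the activation, step 2 and disassembly factors 5 of 14 were higher, among them the helicases DDX41 (1.26 ± 0.22 SE, adjusted p = 0.00130), DHX38 (1.20 ± 0.42 SE, adjusted p = 0.0388) and DHX8 (0.92 ± 0.22 SE, adjusted p = 0.00599). DDX41 had 31 clusters in the IP lists and none in the own inputs or control IP.

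Of the Prp19 and NTC-related genes 4 of 16 were higher, with CDC5L (1.37 ± 0.41 SE, adjusted p = 0.0193), XAB2 (0.93 ± 0.21 SE, adjusted p = 0.00410) and SNW1 (0.80 ± 0.23 SE, adjusted p = 0.0173) named. The U2 list had 1 higher, PUF60 (0.98 ± 0.32 SE, adjusted p = 0.0298), a protein that binds pyrimidine tracts, and 1 lower, PHF5A (-1.19 ± 0.37 SE, adjusted p = 0.0244), of 12. The U1 list had 1 higher, PRPF39 (0.66 ± 0.22 SE, adjusted p = 0.0356), and 1 lower, SNRPC (-0.93 ± 0.25 SE, adjusted p = 0.0108), of 8. Both lower calls rested on small numbers, with 15 clusters in the IP and 15 in own inputs for PHF5A and 5 and 6 for SNRPC, and in number neither was called (-0.04, adjusted p = 0.916, and -0.24, adjusted p = 0.428). The exon junction complex list had 1 of 6 higher, RBM8A (0.71 ± 0.20 SE, adjusted p = 0.0172). None of 12 genes of the Sm and LSm ring was called, and SNRPB, with the most clusters, differed by -0.68 ± 0.31 SE (adjusted p = 0.10).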

How the data were processed

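Clusters of 18 lists were analysed as deposited. Per the submitters' processing notes the authors used bcl2fastq 1.8, cutadapt, Trim Galore, Bowtie2 2.2.9 and Picard on GRCh38, and per the methods they joined the reads of soluble and chromatin fractions of each replicate (36 libraries in 18 lists) and called clusters with PARalyzer. The lists precede the filters on input and control IP. The deposited score has no stated meaning and served only for ranking inside each list. The lists hold no read counts, so read depth is unknown and the limits on reads and transitions could not be changed.

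Files were read as 0-based, and positions are printed 1-based. Every cluster ended within its GRCh38 chromosome. A midpoint within a gene body counted for that gene (GENCODE 44) and was exonic or intronic on the protein-coding isoform with the most exonic bases. Cluster numbers per gene, as log2(clusters per 10000 clusters of the list + 1), were fitted with limma 3.58.1 (R 4.3.3, trend) in 1 model of 6 group means over 9389 genes with a cluster in at least 3 lists, and p-values were adjusted by Benjamini-Hochberg over all of them, two-sided, with a threshold of 0.05. The same was done without scaling, chosen after the data were seen as a result beside the scaled one, and for the log2 ratio of exonic to intronic clusters. Consensus sites merged same-strand overlaps of at least 1 nt, with input density over the gene body and 2 kb flanks. Other steps used Python 3.11.15, numpy 2.4.6 and matplotlib 3.10.9, and the fit was tested on simulated data. Each input was taken from the extract of an IP. The replicate block was a term for replicate number common to all groups, so it did not pair each IP with its own input. Deviations of IP and input of 1 extract from their group means correlated at r = 0.0271 to 0.324 (9 pairs). For lists of 1 line with different numbers, r was -0.240 to 0.140 (18 pairs).

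The 10 genes and the lists were chosen with earlier results of these data known. All 10 are named, with up to 3 called genes of each other list by cluster number, or the gene with the most clusters where none was called. Sequences come from regions without input or control IP overlap in the most IP lists. Alternatives covered pseudocount, filter, scaling, score, isoform, replicate block and left-out lists.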

Additional observations from a re-analysis of the deposited data

How the results depend on the processing

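Of 423 alternative values, 311 were classed as the same as the main value. Counts of called genes and of sites were so classed within a fixed fold of the main count, so such counts could still change. Differences of single genes had to keep their sign and their call, and exonic shares had to stay within 1 SD. Without scaling, the number of the 10 genes called was 8 for SCAF4 and SCAF8 IP against own inputs, 8 and 4 for SCAF4 and SCAF8 IP against input, and 10 and 8 against control IP. This reversed SF3B3 (0.91) and SRRM2 (0.21) against own inputs, and SRRM2 in SCAF4 IP against input (0.19) and in SCAF4 and SCAF8 IP against control IP (0.57 and 0.61). With clusters of at least the median score the counts were 1, 0 (SCAF4 IP against input) and 0 (SCAF8 IP against control IP). The cause was not tested. A pseudocount of 5 gave 2 calls for SCAF4 IP against control IP. For the exon-to-intron ratio, a pseudocount of 0.5 and the MANE Select isoform each gave 1 call, U2AF2.

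With the replicate block 3 genes were called for SCAF4 IP against control IP, and 2 without scaling for SCAF8 IP against input, and it changed no other call among the 10 genes.

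Leaving out lists gave 0 to 3 calls against own inputs (0 without replicate 2 or 3), 0 to 1 for SCAF4 IP and 0 to 1 for SCAF8 IP against input, 0 to 5 and 0 to 2 against control IP, 0 to 0 between the proteins and 0 to 1 for the ratio against own inputs (0 to 0 within each protein). Without scaling these were 3 to 9, 0 to 9, 0 to 4, 2 to 10, 0 to 9 and 0 to 0.

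Consensus sites of SCAF4, SCAF8 and the pooled lists were 7, 3 and 14 with 3 lists required, 83, 51 and 109 without the density limit, and 1, 0 and 2 with density over the isoform, which was added after the data were seen. With the median score they were 9 for SCAF4 and 2 for SCAF8. Leaving out a replicate gave 8 to 36, 3 to 11 and 11 to 44, lowest without replicate 3 and highest without replicate 1. Exonic shares moved beyond 1 SD to 87.0% (control IP, MANE Select), 73.0% (SCAF4 IP, covered bases) and, with the median score, 67.3% (SCAF8 IP), 87.5% (control IP), 85.7% (SCAF4 input) and 71.5% (SCAF8 input). Without a list they were 76.8% to 81.6% in SCAF4 IP, 71.4% to 75.4% in SCAF8 IP, 89.1% to 91.8% in control IP, 89.2% to 91.8%, 83.4% to 85.3% and 81.9% to 88.4% in the SCAF4, SCAF8 and parental inputs. Depth sets how many clusters can be called, and since it is unknown, how far the differences in cluster number follow depth was not tested.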
